A study of Mus musculus with 12 samples.

Results

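The 4 adult hemoglobin genes and Alas2 were examined in hippocampal RNA of mice that had received fecal microbiota transplants, as a measure of blood in the tissue. The 5 genes are Hbb-bs and Hbb-bt, which encode beta globin, Hba-a1 and Hba-a2, which encode alpha globin, and Alas2, the erythroid form of the first enzyme of heme synthesis. They were chosen by symbol among the 27978 genes of the deposited table, and each of them had a value in all 12 libraries. The study had 3 groups of 4 libraries. FMT-SP, written FMT-DSS+SP in the design text, is the group with substance P (SP), a neuropeptide. It was compared with FMT-DSS, and both were compared with FMT-CON. All 3 groups had been transplanted, and there were no untransplanted mice among the samples. The labels do not spell out CON or DSS, and give no strain, age, sex, dose or time. They also do not say whether each library was a separate animal, so p-values measure only the spread between these libraries, which may be technical.

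Hemoglobin is built from alpha and beta globin chains, each of which holds a heme group. Maturing red cells make nearly all of it in the bone marrow, and the youngest circulating red cells, the reticulocytes, still carry globin and Alas2 mRNA. Brain tissue holds globin mRNA through the blood left in its vessels, and small amounts have also been described in neurons and glia. Heme for the mitochondria of every cell is made through Alas1, a separate gene for the same reaction, and the later enzymes of the pathway are shared by both. In bulk tissue, fewer red cells and less RNA per red cell cannot be told apart.

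In GRCm38 with the GENCODE vM21 annotation, Hbb-bs lies on chromosome 7 at 103826534 to 103828096 and Hbb-bt at 103812524 to 103813996, both on the minus strand. Hba-a1 lies on chromosome 11 at 32283511 to 32284465 and Hba-a2 at 32296489 to 32297298, both on the plus strand. Alas2 lies on the X chromosome at 150547375 to 150570638, on the plus strand. The longest transcript of each globin gene has 3 exons, and that of Alas2 has 11. The 4 loci of the globins and the locus of Alas2 are thus on 3 chromosomes. The 250 bases before the RefSeq transcription start are shown for 4 of the 5 genes, 5′ to 3′ on the strand of the gene (GRCm38.p6, chr7:103827929-103828178 for Hbb-bs, chr7:103813924-103814173 for Hbb-bt, chr11:32283422-32283671 for Hba-a1 and chrX:150547167-150547416 for Alas2). The GENCODE genes above begin before these RefSeq starts, so part of each window lies inside the gene as placed there. Whether these windows bear on the differences between libraries was not tested. Capitals mark 4 motifs searched on both strands: GATAA with its reverse complement TTATC, the motif CACCC with its reverse complement GGGTG, the motif CCAAT with its reverse complement ATTGG, and the motif TATAA with its reverse complement TTATA.
Hbb-bs: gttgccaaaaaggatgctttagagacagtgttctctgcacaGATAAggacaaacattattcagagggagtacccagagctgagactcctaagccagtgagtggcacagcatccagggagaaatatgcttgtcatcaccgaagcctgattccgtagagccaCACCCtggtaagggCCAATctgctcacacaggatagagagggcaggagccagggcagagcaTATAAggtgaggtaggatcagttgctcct
Hbb-bt: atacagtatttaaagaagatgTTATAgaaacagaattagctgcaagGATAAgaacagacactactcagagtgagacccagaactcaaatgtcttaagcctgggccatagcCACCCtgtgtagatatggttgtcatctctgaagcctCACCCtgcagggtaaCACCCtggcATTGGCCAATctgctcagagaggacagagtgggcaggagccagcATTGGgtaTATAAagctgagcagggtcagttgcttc
Hba-a1: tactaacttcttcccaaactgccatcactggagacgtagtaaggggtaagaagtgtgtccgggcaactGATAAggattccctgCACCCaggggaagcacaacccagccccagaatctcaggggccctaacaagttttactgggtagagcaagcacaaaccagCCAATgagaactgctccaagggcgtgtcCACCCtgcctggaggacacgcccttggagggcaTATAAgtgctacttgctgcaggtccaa
Alas2: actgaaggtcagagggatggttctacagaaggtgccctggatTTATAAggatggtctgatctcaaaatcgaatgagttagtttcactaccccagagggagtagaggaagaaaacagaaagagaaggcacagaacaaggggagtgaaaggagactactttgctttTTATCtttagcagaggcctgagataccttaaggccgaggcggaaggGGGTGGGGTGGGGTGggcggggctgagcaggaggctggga
The window of Hba-a2 is not printed because it shares an unbroken run of 247 bases with that of Hba-a1. GATAA and CACCC are the letters at the core of the sites of GATA and KLF factors, which include the red cell regulators Gata1 and Klf1. Each of the 4 globin windows held all 4 motifs. TATAA began 29, 28, 27 and 30 bases before the start in Hbb-bs, Hbb-bt, Hba-a1 and Hba-a2, and CCAAT began 76, 75, 88 and 91 bases before it. Hbb-bt also had ATTGG at 80 and 36 bases, the first of which adjoins its CCAAT. Alas2 held 3 of the motifs: GATAA as TTATC at 86 bases, CACCC as GGGTG at 40, 35 and 30 bases, and TATAA at 207 bases, where it overlaps TTATA by all but 1 letter. Among 32851 mouse promoter windows of the same length, 22.6% held GATAA, 52.0% CACCC, 33.8% CCAAT, 22.8% TATAA, and 0.968% held all 4. A match is a match of letters and shows no binding.

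Levels are given as deposited in FPKM, which is a count of fragments scaled to the length of the transcript and the total of mapped fragments. The depth estimated from the steps between low values was 31.5 to 37.1 M fragments, where M stands for 1000000. Mitochondrially encoded genes took 24.0% of all FPKM in FMT-SP 4, 29.0% in FMT-DSS 4 and 27.7% in FMT-CON 4, and 15.9% to 20.3% in the other 9 libraries. The 10 hippocampal neuron markers were all tested, and their sum was 157 to 250 FPKM. Markers of tissue next to the hippocampus differed between libraries of 1 group: choroid plexus genes summed to 55.1 to 4210 FPKM in FMT-SP, 1402 to 3192 in FMT-DSS and 63.0 to 3934 in FMT-CON. Pituitary hormone genes summed to 3594 FPKM in FMT-CON 3, against at most 24.0 elsewhere.

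Hbb-bs had the highest level of the 5 genes in every library. It stood at 73.4, 682, 144 and 94.3 FPKM in FMT-SP 1 to 4, at 118, 371, 203 and 377 FPKM in FMT-DSS 1 to 4, and at 76.8, 76.4, 217 and 149 FPKM in FMT-CON 1 to 4. FMT-SP 2 was far above the other FMT-SP libraries, FMT-DSS 2 and FMT-DSS 4 followed it, and all 3 groups overlapped. The means were 248 ± 290 FPKM in FMT-SP, 267 ± 128 in FMT-DSS and 130 ± 67.4 in FMT-CON (SD, n = 4 each), so in FMT-SP the SD exceeded the mean.

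Hbb-bt, the second adult beta globin gene, had the same high and low libraries at a lower level. Its values were 7.89, 133, 19.7 and 9.71 FPKM in FMT-SP 1 to 4, 17.5, 40.3, 32.9 and 44.7 FPKM in FMT-DSS 1 to 4, and 8.96, 10.4, 27.4 and 12.5 FPKM in FMT-CON 1 to 4. The lowest FMT-DSS library lay above 3 of the 4 FMT-CON libraries, and FMT-CON 3 lay between FMT-DSS 1 and FMT-DSS 3. The means were 42.5 ± 60.3 FPKM in FMT-SP, 33.9 ± 11.9 in FMT-DSS and 14.8 ± 8.52 in FMT-CON (SD, n = 4 each). Hbb-bt and Hbb-bs are close copies: 58.3% of the 50-base stretches in the Hbb-bt transcript also occur in Hbb-bs, and 53.2% the other way, so the division of reads between them depends on the counting.

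The alpha globin genes repeated the pattern. Hba-a1 stood at 34.8, 409, 69.2 and 44.5 FPKM in FMT-SP 1 to 4, at 65.3, 134, 131 and 234 FPKM in FMT-DSS 1 to 4, and at 46.9, 39.8, 109 and 64.9 FPKM in FMT-CON 1 to 4. Here FMT-DSS 4 was clearly above FMT-DSS 2, which was close to FMT-DSS 3. Hba-a2 stood at 6.57, 97.4, 16.9 and 9.65 FPKM in FMT-SP 1 to 4, at 15.4, 34.1, 27.9 and 55.9 FPKM in FMT-DSS 1 to 4, and at 8.12, 10.3, 32.6 and 19.4 FPKM in FMT-CON 1 to 4. FMT-CON 3 and FMT-CON 4 were both above FMT-DSS 1 in this gene. Hba-a1 averaged 139 ± 180 FPKM in FMT-SP, 141 ± 69.4 in FMT-DSS and 65.3 ± 31.3 in FMT-CON, and Hba-a2 averaged 32.6 ± 43.4 FPKM in FMT-SP, 33.4 ± 16.9 in FMT-DSS and 17.6 ± 11.1 in FMT-CON (SD, n = 4 each). The split between the alpha genes is uncertain, since 89.3% of the 50-base stretches of Hba-a2 occur in Hba-a1 and 72.3% the other way, while 0% of those of Hba-a1 occur in Hbb-bs.

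Alas2 was the lowest of the 5 genes and shares no family with the globins. It stood at 1.03, 16.7, 2.5 and 1.47 FPKM in FMT-SP 1 to 4, at 1.76, 8.34, 3.78 and 6.27 FPKM in FMT-DSS 1 to 4, and at 1.18, 1.05, 3.11 and 1.32 FPKM in FMT-CON 1 to 4. FMT-SP 2 was again highest and FMT-SP 1 lowest, and FMT-DSS 2 came before FMT-DSS 4. The means were 5.41 ± 7.53 FPKM in FMT-SP, 5.04 ± 2.87 in FMT-DSS and 1.66 ± 0.972 in FMT-CON (SD, n = 4 each). At the estimated depth and the length of the longest transcript, the lowest value corresponds to about 76.0 fragments and the highest to about 1137.

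**Figure D1:**
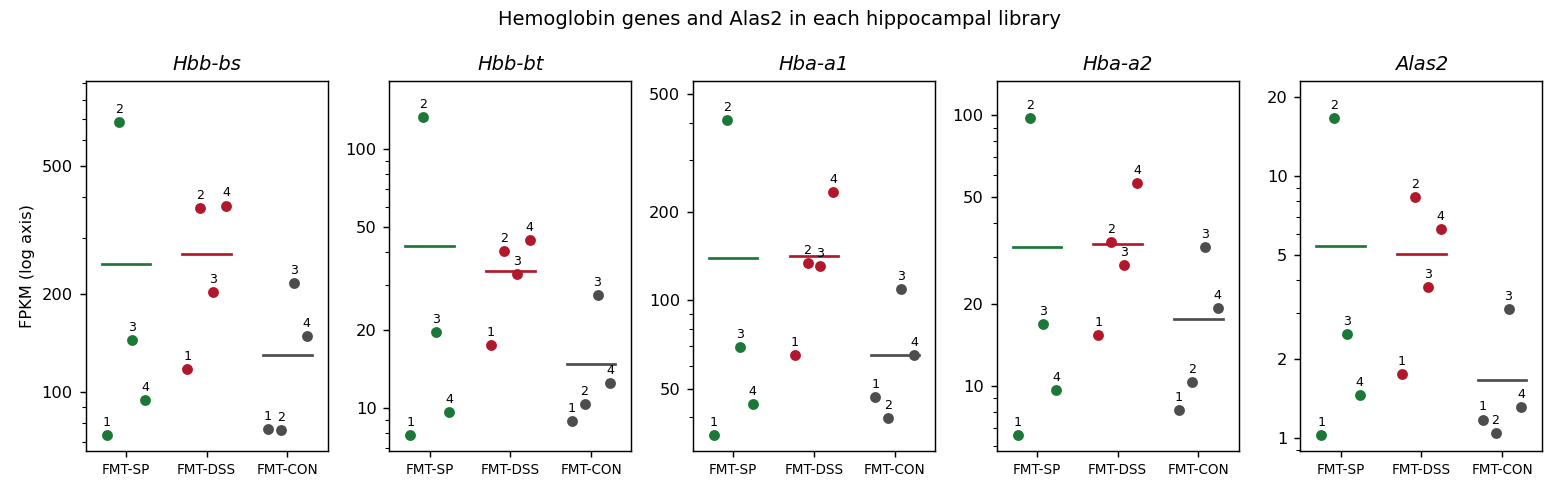
FPKM (log axes) of the 5 genes in each library, with FMT-SP, FMT-DSS and FMT-CON from left to right; each point is 1 library with its replicate number and each line a group mean of 4. FMT-SP 2 is the highest and FMT-SP 1 the lowest library in all 5 panels, and the groups overlap in each.

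FMT-SP 2 ranked first and FMT-SP 1 last in all 5 genes, and FMT-DSS 2 and FMT-DSS 4 came directly after FMT-SP 2 in all 5. The highest library exceeded the lowest by 9.28-fold in Hbb-bs, 16.8-fold in Hbb-bt, 11.7-fold in Hba-a1, 14.8-fold in Hba-a2 and 16.2-fold in Alas2. The spread within groups was large for these data: the residual SD on the log2(FPKM + 1) scale was 0.97 to 1.15 in the 5 genes, against a median of 0.20 over the 12559 genes tested. Between 99.5% and 99.7% of tested genes had a smaller residual SD than these 5.

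Compared pair by pair over the 12 libraries, log2 FPKM of the 5 genes gave Pearson's r of 0.93 to 0.98 and Spearman's rho of 0.92 to 0.98 in the 10 pairs. These values share libraries and depth, and within the beta and the alpha pair also reads, so they are given as a description without a p. The lowest r, 0.93, was that of Hba-a2 with Alas2. The SD of the log2 ratio between genes of a pair was 0.23 to 0.47, against 1.04 to 1.31 for the SD of the log2 levels themselves.

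**Figure D2:**
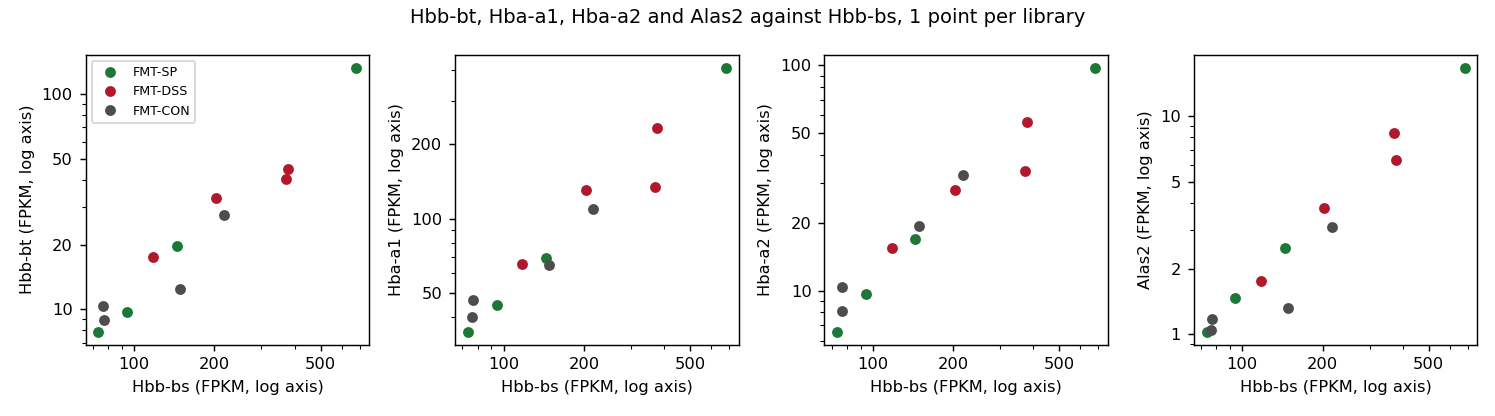
FPKM of Hbb-bt, Hba-a1, Hba-a2 and Alas2 (vertical, log axes) against FPKM of Hbb-bs (horizontal, log axis); each point is 1 of 12 libraries, coloured by group. In each panel the points lie close to 1 rising line, from FMT-SP 1 at the lower left to FMT-SP 2 at the upper right.

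The ratios between the genes moved much less than the levels. The globin sum, the total of the 4 globin genes, was 123 FPKM in FMT-SP 1 and 1320 FPKM in FMT-SP 2, a 10.8-fold range, and made up 0.0347% to 0.390% of all FPKM. Over the same libraries the ratio of alpha to beta globin FPKM was 0.409 (FMT-DSS 2) to 0.687 (FMT-DSS 4), with a mean of 0.572 ± 0.0794 (SD, n = 12). Hbb-bt stood at 8.40% (FMT-CON 4) to 19.4% (FMT-SP 2) of the Hbb-bs level, and Hba-a2 at 17.3% (FMT-CON 1) to 29.8% (FMT-CON 4) of the Hba-a1 level. All of these compare FPKM, which is per length.

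Alas2 as a percent of the globin sum was 0.839, 1.26, 0.998 and 0.927 in FMT-SP 1 to 4, 0.817, 1.44, 0.957 and 0.883 in FMT-DSS 1 to 4, and 0.838, 0.765, 0.806 and 0.536 in FMT-CON 1 to 4. Its means were 1.01% ± 0.182 in FMT-SP, 1.02% ± 0.283 in FMT-DSS and 0.736% ± 0.137 in FMT-CON (SD, n = 4 each). FMT-DSS overlapped with both other groups, since FMT-DSS 1 lay below FMT-CON 1 and below every FMT-SP library. FMT-SP and FMT-CON did not overlap, though only by the gap between 0.839 in FMT-SP 1 and 0.838 in FMT-CON 1. Alas2 rested on about 76.0 fragments in FMT-SP 1 and 87.5 in FMT-CON 1, so a gap this narrow cannot be told from counting error. This percentage was not tested. The 2 highest percentages were in FMT-DSS 2 and FMT-SP 2, which also had high globin levels, and the lowest was in FMT-CON 4.

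**Figure D3:**
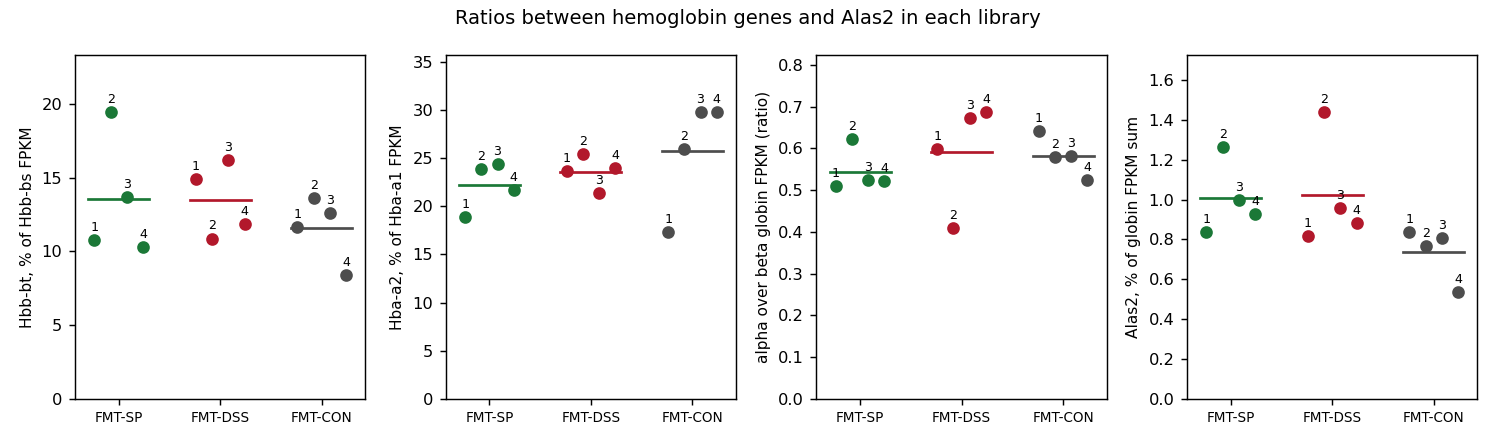
Ratios between the genes in each library, with the vertical axes starting at 0 and FMT-SP, FMT-DSS and FMT-CON from left to right; points are libraries with their replicate numbers and lines are group means of 4. Hbb-bt as a percent of Hbb-bs ran from 8.40 to 19.4 and alpha over beta globin from 0.409 to 0.687, while the globin sum varied 10.8-fold.

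In FMT-DSS against FMT-CON, all 5 genes had a higher mean in FMT-DSS, and none passed the test of limma across all genes. The mean FPKM of FMT-DSS was 2.06 times that of FMT-CON in Hbb-bs, 2.29 times in Hbb-bt, 2.16 times in Hba-a1, 1.90 times in Hba-a2 and 3.03 times in Alas2. On the log2(FPKM + 1) scale the difference was 1.03 ± 0.63 (SE) for Hbb-bs, with a 95% interval of -0.34 to 2.39. It was 1.19 ± 0.70 for Hbb-bt, 1.07 ± 0.65 for Hba-a1, 0.94 ± 0.70 for Hba-a2 and 1.10 ± 0.59 for Alas2. The Benjamini-Hochberg adjusted p from limma was 0.966 to 0.967 in all 5. The intervals reach from below 0 to above 2, so neither no difference nor a 4-fold one lies outside them.

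In this comparison limma passed 0 of the 5 genes at an adjusted p under 0.05, against 0% of all 12559 tested genes, and 0 of 5 at an unadjusted p under 0.05, against 4.06%. Groups without overlap occurred in 0 of 5 genes, against 1.75% of all. The exact permutation test of each gene alone, two-sided over 70 assignments of 8 libraries, gave p = 0.143 for Hbb-bs, 0.171 for Hba-a2 and 0.0571 for Hbb-bt, Hba-a1 and Alas2, where the smallest p possible is 0.0286. The median difference of the 5 genes was 1.07, against -0.03 over all tested genes. Without FMT-DSS 2 and FMT-DSS 4 the differences were 0.39 for Hbb-bs, 0.80 for Hbb-bt, 0.61 for Hba-a1, 0.42 for Hba-a2 and 0.51 for Alas2, and with libraries weighted by their agreement with the model they were 0.39 for Hbb-bs, 0.62 for Hbb-bt, 0.50 for Hba-a1, 0.27 for Hba-a2 and 0.54 for Alas2. Without FMT-SP 2, which enters only the shared estimate of the spread, the unadjusted limma p was 0.00936 to 0.0630 and the adjusted p 0.999. FMT-SP 2 was the highest library in all 5 genes, so leaving it out narrows that estimate for them by construction. In that fit 472 of 12558 tested genes had an unadjusted p under 0.05. Without FMT-DSS 2 and FMT-DSS 4 the unadjusted limma p of the 5 genes was 0.405 to 0.646.

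FMT-SP against FMT-DSS, the comparison for substance P, depended on whether means or log values were compared. On the log2(FPKM + 1) scale all 5 genes were lower in FMT-SP, by values within their errors: -0.57 ± 0.63 (SE) for Hbb-bs, -0.54 ± 0.70 for Hbb-bt, -0.64 ± 0.65 for Hba-a1, -0.69 ± 0.70 for Hba-a2 and -0.38 ± 0.59 for Alas2. The ratio of mean FPKM, which weights FMT-SP 2 more, was 0.930 for Hbb-bs, 0.988 for Hba-a1 and 0.979 for Hba-a2, but 1.25 for Hbb-bt and 1.07 for Alas2. The adjusted p from limma was 0.999 in each of the 5, and the exact permutation p ran from 0.486 to 0.657.

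Among the 5 genes, 0 passed at an adjusted p (0% of all tested genes), 0 at an unadjusted p under 0.05 (2.5% of all) and 0 had groups without overlap (1.27% of all). The median difference was -0.57, against 0.03 over all tested genes. Without FMT-SP 2 the differences were -1.26 ± 0.46 (SE) for Hbb-bs, -1.40 ± 0.41 for Hbb-bt, -1.41 ± 0.42 for Hba-a1, -1.47 ± 0.49 for Hba-a2 and -1.08 ± 0.39 for Alas2, with unadjusted limma p of 0.00586 to 0.0189 and adjusted p of 0.999. Since FMT-SP 2 was the highest library in all 5 genes, leaving it out lowers their FMT-SP means and their spread by construction. In that fit 260 of 12558 tested genes had an unadjusted p under 0.05. Without FMT-DSS 2 and FMT-DSS 4, Hbb-bs turned to 0.07 and Alas2 to 0.21, and the unadjusted limma p of the 5 genes was 0.781 to 0.934.

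FMT-SP against FMT-CON, which shares its libraries with the comparisons above, gave higher log2 means in FMT-SP for all 5 genes, none of them past the test. The differences were 0.46 ± 0.63 (SE) for Hbb-bs, 0.65 ± 0.70 for Hbb-bt, 0.43 ± 0.65 for Hba-a1, 0.25 ± 0.70 for Hba-a2 and 0.72 ± 0.59 for Alas2. In mean FPKM, FMT-SP stood at 1.92 times FMT-CON in Hbb-bs, 2.87 times in Hbb-bt, 2.13 times in Hba-a1, 1.86 times in Hba-a2 and 3.25 times in Alas2. The adjusted p from limma was 1.0 and the exact permutation p 0.543 to 0.83.

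Of the 5 genes, 0 passed at an adjusted p (0% of all tested genes), 0 at an unadjusted p under 0.05 (0.358% of all), and 0 had groups without overlap (0.494% of all). Their median difference was 0.46, against -0.01 over all tested genes. This direction rested on 1 library: without FMT-SP 2 the differences were -0.23 for Hbb-bs, -0.20 for Hbb-bt, -0.34 for Hba-a1, -0.53 for Hba-a2 and 0.02 for Alas2.

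**Figure D4:**
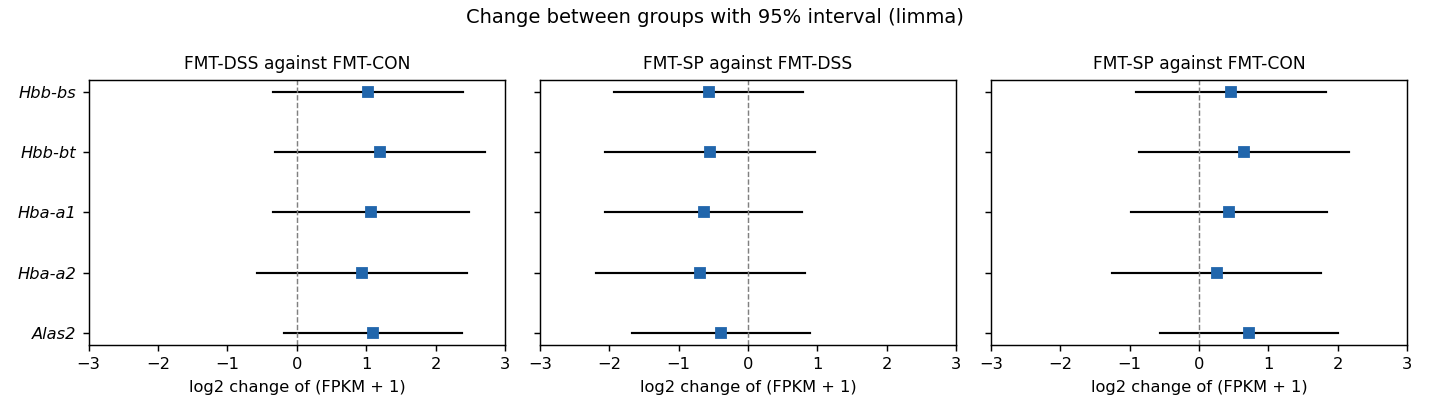
Difference in log2(FPKM + 1) for each gene (squares) with its 95% interval from limma (lines) in the 3 comparisons; the dashed line is 0 and positive values are higher in the group named first. All 15 intervals include 0.

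The other enzymes of heme synthesis, summed, varied little between libraries. Of the 8 besides Alas2, all were tested and none passed in any comparison. FMT-DSS against FMT-CON had 3 higher and 5 lower with a median of -0.06, FMT-SP against FMT-DSS 3 higher and 5 lower with a median of -0.02, and FMT-SP against FMT-CON 2 higher and 6 lower with a median of -0.04. Their sum was 93.8 to 101 FPKM in FMT-SP, 96.5 to 105 in FMT-DSS and 99.3 to 105 in FMT-CON, all in a narrow range. Alas1, the housekeeping counterpart of Alas2, ran from 13.5 to 16.6 FPKM, and was above the level of Alas2 in every library but FMT-SP 2, where Alas1 stood at 15.8 and Alas2 at 16.7 FPKM. Urod, uroporphyrinogen decarboxylase, ran from 22.5 to 27.6 FPKM, Cpox, coproporphyrinogen oxidase, from 9.34 to 15.9 and Fech, ferrochelatase, which inserts the iron, from 17.0 to 22.6. The mean of the 8 centred values against Hbb-bs gave Pearson's r of -0.03 over the 12 libraries (permutation p = 0.918, adjusted over 17 lists 0.978) and Spearman's rho of 0.08 (permutation p = 0.815, adjusted 0.866). Without FMT-SP 2 and FMT-DSS 4, the libraries farthest from the median of Hbb-bs, r was 0.034.

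Of 13 other globin symbols, 7 were in the table and 2 passed the filter of a mean of 1 FPKM. Cygb, cytoglobin, which is made in brain, ran from 23.9 to 36.5 FPKM, and Ngb, neuroglobin, from 1.75 to 7.71, neither past the test in any comparison. The theta globins Hbq1a and Hbq1b stayed at 0.0912 to 0.686 and 0.218 to 1.07 FPKM. The embryonic globins Hba-x and Hbb-y, chosen after their values were seen, reached at most 0.193 and 0.312 FPKM and were listed at 0 in 10 and 7 libraries.

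The 24 other red cell genes gave a split picture: 17 had means under 1 FPKM and 7 were tested, none of which passed in any comparison. Of these 7, 2 were higher and 5 lower in FMT-DSS than in FMT-CON (median -0.10), 6 higher and 1 lower in FMT-SP than in FMT-DSS (median 0.08), and 4 higher and 3 lower in FMT-SP than in FMT-CON (median 0.03). The 4 of highest mean varied over smaller ranges than the globins: Bpgm, bisphosphoglycerate mutase, by 1.30-fold between the lowest and highest library, Tmcc2, a membrane protein, by 1.73-fold, Sptb, beta spectrin, by 1.51-fold, and Slc25a37, the mitochondrial iron carrier mitoferrin, by 2.27-fold. The summed level of all 24 was 103 to 133 FPKM in FMT-SP, 104 to 115 in FMT-DSS and 113 to 127 in FMT-CON.

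Genes more restricted to red cells, chosen after their values were seen, were near 0 in most libraries and highest in FMT-SP 2. Slc4a1, the band 3 anion exchanger of the red cell membrane, stood at 1.07 FPKM in FMT-SP 2 and at 0.0484 to 0.267 in the other 11 libraries. Ahsp, which stabilises free alpha globin, stood at 1.46 FPKM in FMT-SP 2, 1.35 in FMT-DSS 4 and 0.775 in FMT-DSS 3, and was listed at 0 in 3 libraries. In FMT-DSS 2, with its 371 FPKM of Hbb-bs, Slc4a1 stood at 0.0653 and Ahsp at 0.165 FPKM, so these genes did not follow the globins there. The erythroid transcription factors Gata1 and Klf1 reached at most 0.0291 and 0.194 FPKM.

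Ube2l6, a ubiquitin and ISG15 conjugating enzyme abundant in red cells and on the red cell list, was closest to the 5 genes among 12554 others. Likeness was Pearson's r over the 12 libraries with the mean of the centred log2(FPKM + 1) values of the 5 genes, as a description without a p. Ube2l6 had r = 0.91, or 0.83 without FMT-SP 2. It stood at 2.59, 7.93, 3.0 and 3.51 FPKM in FMT-SP 1 to 4, at 2.15, 4.55, 3.76 and 5.16 in FMT-DSS 1 to 4, and at 2.34, 2.84, 4.19 and 3.56 in FMT-CON 1 to 4. Its highest libraries were FMT-SP 2, FMT-DSS 4 and FMT-DSS 2, as for the globins, over a smaller 3.69-fold range.

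The next by likeness was Vwf, von Willebrand factor, made by endothelial cells and platelets, with r = 0.87, or 0.83 without FMT-SP 2. Its highest levels were 5.82 FPKM in FMT-DSS 2, 5.11 in FMT-SP 2 and 3.67 in FMT-DSS 4, against 1.5 in FMT-CON 2, the lowest. Then came Acer2, an alkaline ceramidase, with r = 0.86, and Aatf, the apoptosis-antagonizing transcription factor, with r = 0.84. Others of the closest 10 were Pvr, the poliovirus receptor, Rigi, a sensor of viral RNA, Babam2, Tmem88 and Crcp, with r of 0.79, 0.77, 0.76, 0.75 and 0.73. Of these, Aatf varied by only 1.25-fold between libraries, Babam2 by 1.27-fold and Crcp by 1.28-fold. At the other end stood Gpx7, a peroxidase of the endoplasmic reticulum, Ndufaf1, an assembly factor of respiratory complex I, Fam241a, 1700113A16Rik and Uqcc4, with r of -0.87, -0.83, -0.81, -0.79 and -0.76. In all, 4 genes had r above 0.8 and 3 below -0.8. The lowest r of any of the 5 genes with their own mean was 0.98. That value is raised because each of the 5 is part of the mean, so it cannot be set beside r of the other genes.

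Marker lists of blood cells and of other cells and tissues, and lists of genes of a shared function, were compared with Hbb-bs in the same libraries. For 17 lists, the mean centred log2 value per library was correlated with log2(FPKM + 1) of Hbb-bs, and 0 of 17 passed after Benjamini-Hochberg adjustment of permutation p-values. The red cell list had the highest r, 0.73 (permutation p = 0.00511, adjusted 0.0869), with rho of 0.66 (permutation p = 0.0242, adjusted 0.252). Without FMT-SP 2 and FMT-DSS 4 its r was 0.41, and without FMT-SP 2 alone 0.50, so the relation rested largely on FMT-SP 2. Without the 3 libraries numbered 4, which had the highest mitochondrial shares, it was 0.73. The red cell list holds Ube2l6, so its r is not separate from the likeness of that gene given above.

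Platelet markers stayed low. Of 10, 1 was tested, Gp1bb, at 2.08 to 4.50 FPKM, and the sum was 4.06 to 7.65 FPKM in FMT-SP, 4.33 to 6.63 in FMT-DSS and 4.58 to 5.92 in FMT-CON. FMT-SP 2, highest in globin, had the lowest platelet sum, 4.06 FPKM, and Pf4, platelet factor 4, stood at 0.173 FPKM in it. The list gave r of 0.20 with Hbb-bs (permutation p = 0.523, adjusted 0.693) and rho of 0.29 (permutation p = 0.352, adjusted 0.598), with r of 0.45 without FMT-SP 2 and FMT-DSS 4.

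Neutrophil markers were highest in FMT-DSS 2 and FMT-DSS 4, and low in FMT-SP 2. Of 10 markers 4 were tested, none of which passed in any comparison. S100a9, an abundant neutrophil calcium-binding protein, stood at 0.422, 1.09, 5.61 and 2.38 FPKM in FMT-SP 1 to 4, at 0.156, 101, 1.21 and 12.8 in FMT-DSS 1 to 4, and at 0.420, 0.626, 5.23 and 3.23 in FMT-CON 1 to 4. In S100a8, its partner, the highest levels were 58.6 FPKM (FMT-DSS 2) and 8.42 (FMT-DSS 4), and FMT-SP 2 had 0.459. The summed list stood at 0.620 to 10.3 FPKM in FMT-SP, 0.259 to 190 in FMT-DSS and 0.633 to 8.25 in FMT-CON, and Elane, which marks immature neutrophils and was chosen after its values were seen, reached at most 0.0592 FPKM. Monocyte markers summed to 24.7 FPKM in FMT-DSS 2 and at most 0.941 elsewhere, and lymphocyte markers to 0.175 to 3.53. The part of these cells in the globin levels was not tested. With Hbb-bs the neutrophil list gave r of 0.49 (permutation p = 0.10, adjusted 0.426) and rho of 0.64 (permutation p = 0.0296, adjusted 0.252), and without FMT-SP 2 and FMT-DSS 4 its r was 0.77.

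Microglia markers were lowest in FMT-DSS 2 and FMT-DSS 4, and FMT-SP 2 had the lowest sum of the FMT-SP libraries, close to the 119 FPKM of FMT-SP 4. Their sum was 118 to 142 FPKM in FMT-SP, 61.8 to 131 in FMT-DSS and 105 to 140 in FMT-CON, with 84.4 in FMT-DSS 2, 61.8 in FMT-DSS 4 and 118 in FMT-SP 2. Cx3cr1, the fractalkine receptor of microglia, chosen after its values were seen, had 12.2 FPKM in FMT-SP 2, against 1.12 FPKM in FMT-DSS 2 and 2.20 FPKM in FMT-DSS 4. The list gave r of -0.59 with Hbb-bs (permutation p = 0.0420, adjusted 0.357) and rho of -0.56 (permutation p = 0.0622, adjusted 0.352), and without FMT-SP 2 and FMT-DSS 4 its r was -0.64. Endothelial markers, of the vessel wall, summed to 106 to 144 FPKM in FMT-SP, 97.0 to 115 in FMT-DSS and 107 to 137 in FMT-CON, and gave r of 0.01 (permutation p = 0.978, adjusted 0.978) and rho of -0.15 (permutation p = 0.649, adjusted 0.757), with r of -0.36 without FMT-SP 2 and FMT-DSS 4.

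**Figure D5:**
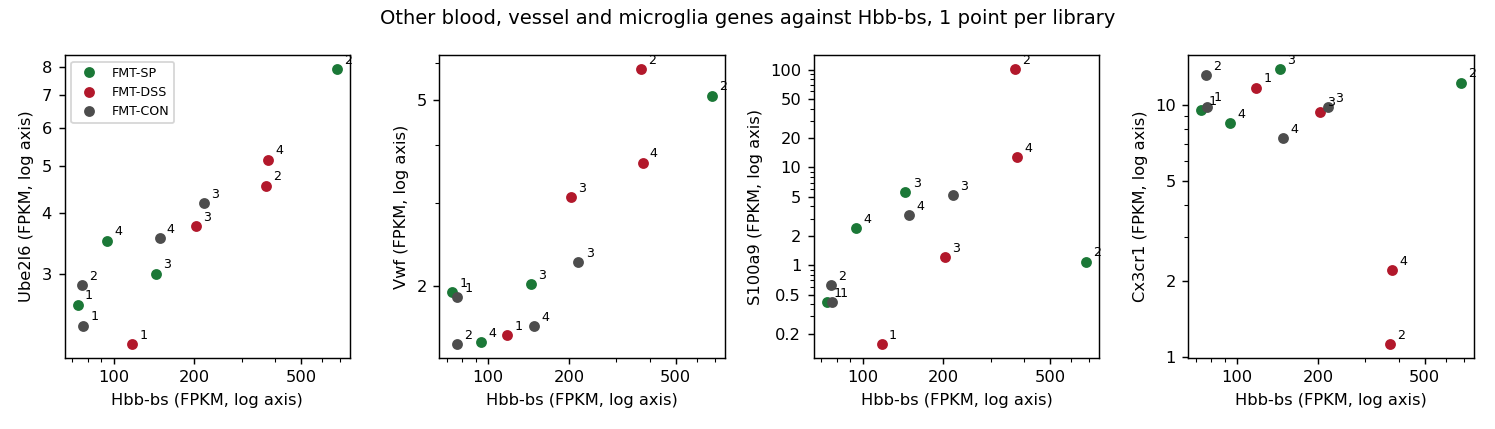
FPKM of Ube2l6, Vwf, S100a9 and Cx3cr1 (vertical, log axes) against FPKM of Hbb-bs (horizontal, log axis), 1 point per library with its replicate number, coloured by group. Ube2l6 and Vwf are high in FMT-SP 2, FMT-DSS 2 and FMT-DSS 4 alike, while S100a9 and Cx3cr1 set FMT-DSS 2 and FMT-DSS 4 apart from FMT-SP 2.

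Of 16 genes of heme breakdown and iron handling, 12 were tested and none passed. In FMT-DSS against FMT-CON 7 were higher and 5 lower (median 0.05), in FMT-SP against FMT-DSS 4 higher and 8 lower (median -0.03), and in FMT-SP against FMT-CON 6 higher and 6 lower (median 0.01). In FMT-DSS against FMT-CON, 2 of the 12 had an unadjusted p under 0.05, against 4.06% of all tested genes. These were Blvra, a biliverdin reductase, at -0.26 ± 0.09 and Slc40a1, the iron exporter ferroportin, at -0.46 ± 0.20 (SE), both with an adjusted p of 0.966 from limma. In FMT-SP against FMT-DSS it was 1 of the 12, against 2.5% of all, namely Slc40a1 at 0.59 ± 0.20 (SE) with an adjusted p of 0.999 from limma. Fth1 and Ftl1, the ferritin chains, ran from 2423 to 4294 and from 218 to 320 FPKM and were both highest in FMT-DSS 4. Trf, transferrin, which oligodendrocytes make, ran from 65.7 to 228 FPKM. Hmox2, the constitutive heme oxygenase, ran from 37.2 to 48.4 FPKM. Hmox1, the inducible heme oxygenase that opens the heme ring, chosen after its values were seen, ran from 2.18 to 5.07 FPKM, with its highest levels in FMT-DSS 2 and FMT-DSS 4 (3.55) and 2.66 in FMT-SP 2. The list gave r of 0.19 with Hbb-bs (permutation p = 0.568, adjusted 0.693) and rho of 0.14 (permutation p = 0.668, adjusted 0.757), with r of 0.47 without FMT-SP 2 and FMT-DSS 4.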

How the data were processed

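RNA of hippocampal tissue was sequenced in 12 libraries, 4 per group, with groups and replicate numbers from the sample titles. The deposited values are FPKM per gene, computed by the authors; HISAT2 2.0 and the build mm8 are named, without a role, per the submitters' processing notes, and the counter and annotation were not given in the sources used here. FPKM depends on the transcript lengths and on how reads of near-identical genes are divided. Genes whose mean reached 1 FPKM (12559 of 27978) were tested as log2(FPKM + 1) in 1 limma model (version 3.58.1, R 4.3.3) of all libraries with a mean-variance trend, two-sided, with Benjamini-Hochberg adjustment over all tested genes at 0.05. The pseudocount of 1 understates changes of low genes such as Alas2. Single genes had exact permutation tests, and correlations 100000 permutations (Python 3.11.15, scipy 1.17.1).

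Depth was estimated from whole-fragment steps in 4713 genes with a single transcript, where 39.2% to 41.9% of low values came within 0.05 of whole fragments (10% by chance), too few to recover counts. Positions and transcripts came from GENCODE vM21 (GRCm38), promoters from RefSeq (GRCm38.p6), matched by symbol, and coordinates are not of the build the authors name. All 5 genes matched in both. The 5 genes and all marker lists were chosen with earlier results of these data known. Genes were named by rule: the 5 genes, up to 4 per list of highest mean, and the 10 most and 5 least alike; any other gene named was chosen after its values were seen, and some that the rule selects are left out. Leaving out FMT-SP 2, FMT-DSS 2 and FMT-DSS 4 together was added after seeing the data. Alternatives are given in the closing section.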

Additional observations from a re-analysis of the deposited data

Results flagged for a closer look

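In 54 groups of 4 libraries, the gap of the highest or lowest library to its nearest neighbour was compared with the range of its group. The gap exceeded the 95% critical value of Dixon's test in 11 of them. Chance flags about 1 in 20 groups where values are normally distributed. That rate does not hold here, because the values were skewed FPKM levels and ratios rather than log2 values, so the flags are only a description. FMT-SP 2 stood apart in 8 of the 11 flagged groups, which share a library and are not independent. Among these, Vwf had been picked for its likeness to the 5 genes, which are highest in FMT-SP 2. Slc4a1 had been picked after its values were seen, so neither flag is separate support. FMT-SP 2 had 682 FPKM of Hbb-bs, against 73.4 to 144 in the other FMT-SP libraries, and 133 FPKM of Hbb-bt, against 7.89 to 19.7. Its alpha globin levels were 409 FPKM of Hba-a1, against 34.8 to 69.2, and 97.4 FPKM of Hba-a2, against 6.57 to 16.9. Alas2 stood at 16.7 FPKM in it, against 1.03 to 2.5, Slc4a1 at 1.07, against 0.0546 to 0.126, and Vwf at 5.11, against 1.51 to 2.02. In FMT-SP 2 the ratio of alpha to beta globin was 0.622, against 0.509 to 0.525 in the other FMT-SP libraries. This ratio was not extreme across the series, since FMT-DSS 4 (0.687), FMT-DSS 3 (0.673) and FMT-CON 1 (0.641) lay above it.

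FMT-DSS 2 stood apart within FMT-DSS in S100a8, at 58.6 FPKM against 0 to 8.42, and in S100a9, at 101 FPKM against 0.156 to 12.8. FMT-CON 3 stood apart within FMT-CON in Alas2, at 3.11 FPKM against 1.05 to 1.32; it also had the highest level of each globin gene among FMT-CON libraries.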

How the results depend on the processing

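No gene passed an adjusted p of 0.05 in any comparison under any of 23 alternatives: another pseudocount, 2 other filters, 3 rescalings, array weights, the replicate block, and libraries left out singly or together. All 5 differences of FMT-DSS against FMT-CON stayed positive throughout. For FMT-SP against FMT-CON without FMT-SP 2, alone or, as added after seeing the data, with FMT-DSS 2 and FMT-DSS 4 also left out, Hba-a1 turned to -0.34, Hba-a2 to -0.53, Hbb-bs to -0.23 and Hbb-bt to -0.20. Hba-a2 also turned to -0.27 with array weights and to -0.03 without FMT-CON 1. With 1 library left out at a time, this comparison ranged from -0.34 to 0.83 for Hba-a1, -0.53 to 0.71 for Hba-a2, -0.23 to 0.84 for Hbb-bs and -0.20 to 1.10 for Hbb-bt. For FMT-SP against FMT-DSS without FMT-DSS 2 and FMT-DSS 4, Alas2 turned to 0.21 and Hbb-bs to 0.066, and Alas2 turned to 0.0079 without the 3 libraries numbered 4. The causes were not tested.

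The labels do not say what the replicate numbers stand for. Same-numbered libraries correlated above 0.1 in 9 of 12 pairs, not in all, and 7 of 12 libraries correlated best with their own number. The 3 pairs numbered 4, which have the highest mitochondrial shares, correlated at 0.72, 0.84 and 0.69, and whether a number marks a batch was not settled by these values. With the number as a replicate block, the counts of genes past the threshold stayed at 0, 0 and 0, and those at an unadjusted p under 0.05 were 1274 for FMT-DSS against FMT-CON (510 without the block), 885 for FMT-SP against FMT-DSS (314) and 310 for FMT-SP against FMT-CON (45). Depth estimates differed by 1.18-fold at most between libraries. FPKM is already scaled to the total of mapped fragments, and a part of depth in the levels of the 5 genes was not tested.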

Other observations

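Of the 17 lists, glucocorticoid-responsive genes had the most members at a small unadjusted p. All 15 were higher in FMT-DSS than in FMT-CON, 9 of them at an unadjusted p under 0.05 (4.06% of all tested genes), and all 15 were lower in FMT-SP than in FMT-DSS, 10 of them at an unadjusted p under 0.05 (2.5% of all tested genes); limma passed none after adjustment, and the FMT-DSS libraries are shared by both comparisons. Their summed level was highest in FMT-DSS 2 (1517 FPKM) and FMT-DSS 4 (1445 FPKM), which also had high globin, and was 648 FPKM in FMT-SP 2, within the FMT-SP range of 510 to 959. With Hbb-bs the list gave r of 0.52 (permutation p = 0.0878, adjusted 0.426) and rho of 0.38 (permutation p = 0.229, adjusted 0.578), with r of 0.57 without FMT-SP 2 and FMT-DSS 4.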
